A study of Drosophila melanogaster with 16 samples.

Results

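Drosophila tumours that lack the polarity gene scrib were compared with tumours that lack baz or cdc42. All arose from mutant clones of cells in the eye-antennal imaginal disc, the larval epithelium that forms the adult eye and antenna. On the scrib side stood RasV12scrib- tumours, which carry an activated form of the small GTPase Ras together with loss of scrib, and RafGOFscrib- tumours (RafGOFscirb- in the sample titles), which carry a gain-of-function form of the kinase Raf together with loss of scrib. On the other side stood RasV12baz- and RasV12cdc42- tumours, which carry activated Ras together with loss of baz or of cdc42. Every array set tumour RNA of day 10 larvae against wild-type disc RNA of day 5 to 6 larvae, both raised at 25 °C, so the age of the larvae and the tumour differed together in each ratio. The labels give about 30 to 40 pooled discs as the source of RNA, and they give neither the share of mutant cells in a tumour nor whether all arrays used the same reference RNA.

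Each genotype had 4 custom arrays, 16 in all, with 11196 features measured on each. Values of RafGOFscrib- replicates 1 and 2 were identical in 95.1% of features, while no other 2 arrays shared more than 0.143%, and the mean of this pair was counted as 1 replicate. This left 7 replicates on the scrib side and 8 on the baz/cdc42 side, and these numbers limit the precision of every value. Values are log2 ratios of tumour to wild-type RNA with the median of each array set to 0, and before that the medians ran from -0.12 to 0.47 on the scrib arrays and from -0.05 to 0.48 on the others. Above, below or near wild-type therefore means relative to 0 on this centred scale. A value closer to 0 than the median taken off can lie on the other side of 0 in the uncentred ratios. That a positive value means more RNA in the tumour is likely from the channel order in the labels and is not stated there. If the ratio ran the other way, every direction given here would turn round and no size would change. The labels call the arrays biological replicates and name no litter or culture, so the p-values measure the spread between these arrays.

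Scrib is a scaffold protein of the basolateral side of epithelial cells, where it acts with Dlg and Lgl. Baz (Par-3) and the small GTPase Cdc42 belong to the apical Par machinery, in which Cdc42 binds Par-6 and so acts on the kinase aPKC. The basolateral and apical groups exclude each other from their own parts of the membrane. Activated Ras or Raf together with loss of polarity is known to give overgrown, invasive discs in Drosophila larvae. The comparison therefore asks whether tumours that lost a basolateral gene differ from those that lost an apical one. Raf occurred only with scrib loss, so the oncogene and the polarity gene cannot be fully told apart in the mean of the scrib side.

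The difference tested was the mean of the 2 scrib genotype means minus the mean of the 2 baz/cdc42 genotype means. It passed an adjusted p of 0.05 for 360 features, or 3.22% of the 11196 tested (limma, Benjamini-Hochberg adjustment). Of these, 103 (0.92%) were higher and 257 (2.3%) lower in scrib tumours. The median difference over all features was -0.02 and the median absolute difference 0.16 on the log2 scale, so most features lay close together on the 2 sides.

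The same sign was found in all 4 pairings of a scrib genotype with a baz or cdc42 genotype for 3905 features (34.9%), of which 1750 (15.6%) were higher and 2155 (19.2%) lower in scrib tumours. Among the 360 called features 332 (2.97% of all) had this agreement, 96 higher and 236 lower (0.857% and 2.11%). The signs come from the values that were tested, so the agreement chose the features and supports nothing further. The other 28 called features differed in sign in at least 1 pairing.

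The 96 higher features had a median difference of 0.85 (range 0.49 to 3.78); 36 of them reached 2-fold and 4 reached 4-fold. For the 236 lower features the median size was 0.96 (range 0.45 to 3.98); 106 of them reached 2-fold and 6 reached 4-fold. The replicates of the 2 sides did not overlap for 23 of the 96 and for 68 of the 236, where 0.232% and 0.697% of all features lay without overlap in these directions; the features had been called on the same values.

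Set against wild-type discs, the median level lay near 0 on the baz/cdc42 side and away from 0 on the scrib side in both directions. Among the 96 higher features, 46 were above wild-type in scrib and below it in baz/cdc42 tumours, 45 were above it on both sides and 5 below it on both. The median level was 0.74 in scrib and -0.02 in baz/cdc42 tumours, and the scrib side lay farther from wild-type for 76 of the 96. Among the 236 lower features, 96 were below wild-type in scrib and above it in baz/cdc42 tumours, 102 were below it on both sides and 38 above it on both. Their median level was -0.72 in scrib and 0.09 in baz/cdc42 tumours, and the scrib side lay farther from wild-type for 157 of the 236. These are descriptions of features chosen on the same values, and the baz/cdc42 side lay both above and below wild-type among them. The SD over features was 0.74 to 0.79 on RasV12scrib- arrays and 0.44 to 0.65 on baz/cdc42 arrays. Distances from wild-type were not recomputed with equal spread, and the share of all features with the scrib side farther from it was not counted.

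**Figure D1:**
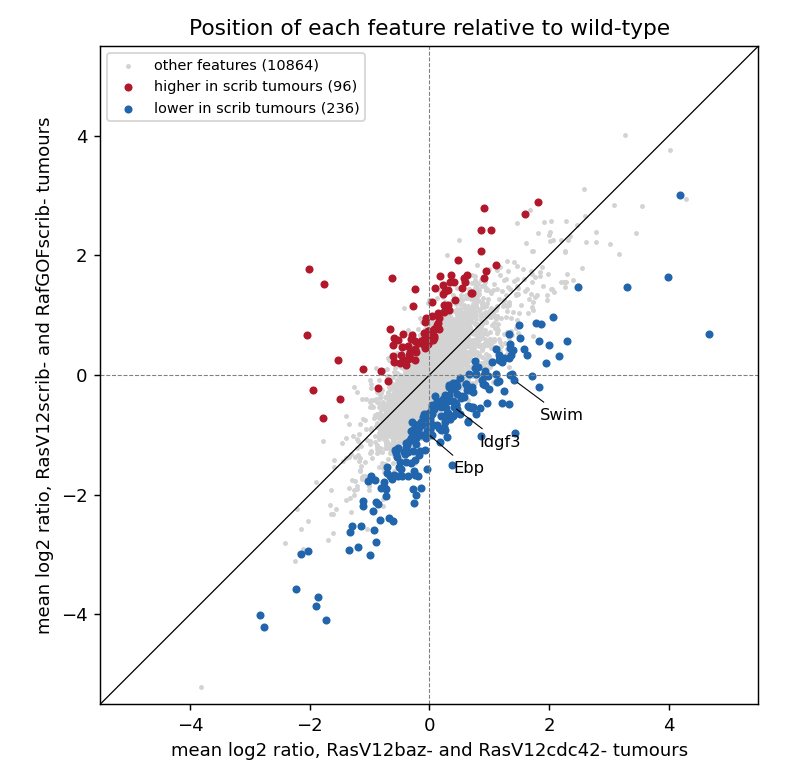
Mean log2 ratio to wild-type of each of the 11196 features, in the 2 scrib genotypes (vertical axis) and in the baz and cdc42 genotypes (horizontal axis). Red points are the 96 called features that were higher and blue points the 236 that were lower in scrib tumours with the same sign in all 4 pairings, grey points are the rest, and the solid line marks equal levels. Blue points extend to strongly negative values on both axes, where the scrib side is the lower one.

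The lower features lay farther from wild-type in RasV12scrib- than in RafGOFscrib- tumours. Among the 236 the median level was -0.91 in RasV12scrib- and -0.52 in RafGOFscrib- tumours, against 0.09 in RasV12baz- and 0.15 in RasV12cdc42- tumours. Of these 236, 159 also passed the threshold in RasV12scrib- against RasV12baz- and 164 in RasV12scrib- against RasV12cdc42-. RafGOFscrib- passed it for 34 against RasV12baz- and for 55 against RasV12cdc42-. Over all features RasV12scrib- passed for 5.34% and 3.8% in these pairings, and RafGOFscrib- for 0.857% and 1%. The SD over features was 0.74 to 0.79 on RasV12scrib- and 0.43 to 0.66 on RafGOFscrib- arrays. Counts over all features after other scalings are given further on. The levels and calls of the 236 were not recomputed with equal spread, so their contrast between the scrib genotypes is unchecked for scaling. The 96 higher features had medians of 0.77 in RasV12scrib- and 0.89 in RafGOFscrib- tumours, against -0.06 in RasV12baz- and 0.03 in RasV12cdc42- tumours. Between RafGOFscrib- and RasV12scrib- tumours 20 of the 236 and 8 of the 96 differed, and between RasV12cdc42- and RasV12baz- tumours 5 and 0 (limma, adjusted p under 0.05). Over all features 2.01% and 0.205% differed in these comparisons, smaller shares than all of these counts but the 0. Of the 332 features 299 passed in neither of these differences within a side, which does not show that the genotypes of a side were equal.

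Each pairing on its own called different numbers of features in the whole table. RasV12scrib- differed from RasV12baz- in 598 (5.34%), 186 higher (1.66%) and 412 lower (3.68%). From RasV12cdc42- it differed in 426 (3.8%), 139 higher (1.24%) and 287 lower (2.56%). RafGOFscrib- differed from RasV12baz- in 96 (0.857%), 36 higher (0.322%) and 60 lower (0.536%), and from RasV12cdc42- in 112 (1%), 43 higher (0.384%) and 69 lower (0.616%). RafGOFscrib- had 3 replicates and the other genotypes 4, and the pairings share their genotypes. Within a side, RafGOFscrib- differed from RasV12scrib- in 225 features (2.01%), 127 higher (1.13%) and 98 lower (0.875%). RasV12cdc42- differed from RasV12baz- in 23 (0.205%), 11 higher (0.0982%) and 12 lower (0.107%). Only 17 features passed in all 4 pairings in the same direction, 8 of them higher and 9 lower in scrib tumours.

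Which scrib genotype differed in more features turned with the scaling. With equal spread on all arrays RafGOFscrib- differed from RasV12baz- in 283 and from RasV12cdc42- in 197 features, against 206 and 121 for RasV12scrib-. After quantile normalization the counts were 321 and 247 for RafGOFscrib-, against 256 and 237 for RasV12scrib-. The balance of higher and lower calls moved as well. Without centring it was 87 and 553 for RasV12scrib- against RasV12baz-, 27 and 26 for RafGOFscrib- against RasV12baz-, and 43 and 35 for RafGOFscrib- against RasV12cdc42-. It was 310 and 56 for RafGOFscrib- against RasV12scrib- and 4 and 10 for RasV12cdc42- against RasV12baz-. With equal spread on all arrays it was 42 and 164 for RasV12scrib- against RasV12baz-, 57 and 24 for RafGOFscrib- against RasV12scrib-, and 5 and 28 for RasV12cdc42- against RasV12baz-. Quantile normalization gave 40 and 93 for RasV12cdc42- against RasV12baz-. The comparison of the 2 sides kept more lower than higher calls without centring (69 and 190), with equal spread (107 and 226) and after quantile normalization (145 and 233).

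**Figure D2:**
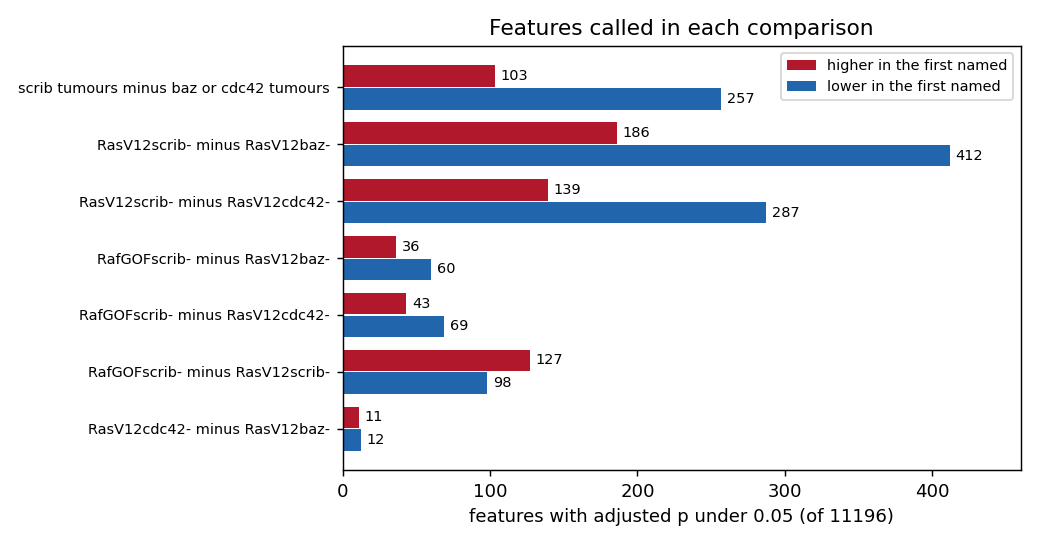
Number of features with an adjusted p under 0.05 (limma, of 11196) in the comparison of the 2 sides, in its 4 pairings and in the 2 differences within a side. Red bars count features higher and blue bars features lower in the genotype named first, and the longest bar is the 412 lower features of RasV12scrib- against RasV12baz-.

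The count of 360 depended on how the arrays of a genotype were taken to relate. With random blocks that joined replicates 1 and 2, and 3 and 4, within each genotype (estimated correlation within a block 0.49), 100 features were called, all of them among the 360. Leaving out the RafGOFscrib- arrays, so that all tumours carried RasV12, gave 685 features, 273 of them among the 360, and leaving out RasV12scrib- gave 129, with 94 among the 360. Leaving out RasV12baz- gave 197 and leaving out RasV12cdc42- gave 150. Of single replicates, leaving out the merged RafGOFscrib- replicate 1 gave 219, RafGOFscrib- replicate 3 gave 230 and RasV12baz- replicate 2 gave 237.

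When 1 replicate was left out, the features called from the other 14 with the same sign in all 4 pairings were read in the left-out one. A value was counted on its own side when it lay on that side of the midpoint between the 2 side means. The left-out value is not independent of the call, since another replicate of its genotype that resembled it stayed in the fit (r across features up to 0.81 between replicates 3 and 4 of RasV12scrib- and of RasV12cdc42-). It lay on its own side for 74.4% to 82.2% of the features in RasV12scrib-, for 73.6% to 87.4% in RasV12baz- and for 74.5% to 91.5% in RasV12cdc42- replicates. Over all features the shares were 52.1% to 56.5%, 50.7% to 65.9% and 49.6% to 53.1% in the same order. In RafGOFscrib- the left-out replicates differed: replicate 1 had 90.4%, replicate 3 had 71.0% and replicate 4 had 49.0%, with 54.6%, 49.1% and 41.8% over all features. RafGOFscrib- replicate 4 also had the narrowest spread of the 16 arrays, an SD of 0.43 over features against up to 0.79 in RasV12scrib- replicate 2. Its part in the difference between the sides was measured by leaving it out. This gave 351 features, 296 of them among the 360 of the main fit, so the set changed more than the count.

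The files do not pair their identifiers with names, and a gene table supplied a symbol for 71 of the 11196 features. Most called features therefore appear here only in counts. The 4 identifiers below are the 2 of largest difference in each direction. They were taken from called features without a symbol that had the same sign in all 4 pairings. FBgn0036606 had centred log2 ratios of 0.87, 1.82, 2.07 and 1.71 in RasV12scrib- and 1.84, 2.02 and 1.91 in RafGOFscrib- tumours. It had -1.57, -2.50, -1.68 and -2.24 in RasV12baz- and -2.17, -2.80, -1.65 and -1.48 in RasV12cdc42- tumours. All scrib replicates were above and all baz/cdc42 replicates below wild-type, and the genotypes within a side lay together. The difference was 3.78 ± 0.23 (SE, 13.8-fold higher in scrib tumours, limma adjusted p = 5.96e-08), and the 4 pairings gave 3.61, 3.64, 3.92 and 3.95.

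FBgn0036605 showed the same placement. It had 0.26, 1.07, 1.20 and 1.18 in RasV12scrib- and 1.88, 2.40 and 2.02 in RafGOFscrib- tumours, against -1.34, -1.92, -0.75 and -2.06 in RasV12baz- and -2.33, -2.55, -1.61 and -1.52 in RasV12cdc42- tumours. The sides did not overlap, and RasV12scrib- replicate 1 was the lowest scrib value. The difference was 3.27 ± 0.23 (9.68-fold higher in scrib tumours, limma adjusted p = 5.19e-07). RafGOFscrib- stood above RasV12scrib- by 1.17 ± 0.34, which did not pass the threshold (limma adjusted p = 0.0939); it passed with equal spread (2.02, adjusted p = 0.0436) and after quantile normalization (1.74, adjusted p = 0.0404).

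Among the lower features, FBgn0035193 had 0.02, -0.49, 0.56 and 0.14 in RasV12scrib- and 0.63, 1.56 and 1.76 in RafGOFscrib- tumours. In RasV12baz- it had 5.53, 4.95, 4.34 and 4.33, and in RasV12cdc42- 4.64, 4.44, 4.30 and 4.80. It was thus close to wild-type in RasV12scrib-, moderately above it in RafGOFscrib- and far above it on every baz and cdc42 array. The difference was -3.98 ± 0.22 (15.8-fold lower in scrib tumours, limma adjusted p = 4.9e-08). It passed in all 4 pairings, as did FBgn0036606 and FBgn0036605. With equal spread its pairing of RafGOFscrib- with RasV12cdc42- no longer passed (-2.91, limma adjusted p = 0.0648).

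FBgn0000071 had -1.79, -3.37, -2.78 and -1.91 in RasV12scrib- and 0.51, 0.55 and 0.50 in RafGOFscrib- tumours. It had 1.45, 1.40, 0.86 and 1.81 in RasV12baz- and 1.13, 0.66, 1.83 and 2.28 in RasV12cdc42- tumours. The sides did not overlap, but RafGOFscrib- lay much nearer to the baz and cdc42 arrays than to RasV12scrib-. The difference of the sides was -2.40 ± 0.27 (5.28-fold lower, limma adjusted p = 6.5e-05). RafGOFscrib- was 2.98 ± 0.39 above RasV12scrib- (limma adjusted p = 0.000995), and its own differences from RasV12baz- (-0.87) and RasV12cdc42- (-0.96) did not pass. Without RasV12scrib- the difference was -0.91 and the call was lost (limma adjusted p = 0.215).

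**Figure D3:**
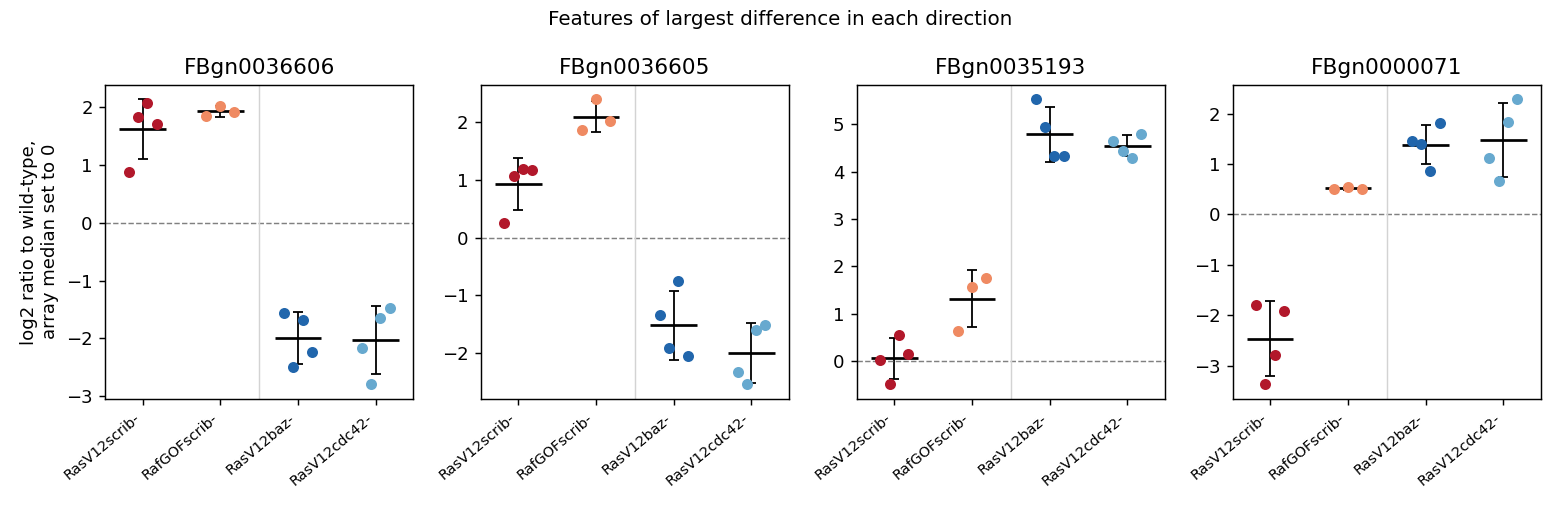
Centred log2 ratio to wild-type (vertical axis) of the 4 features without a symbol, by genotype, with 1 point per replicate, the mean as a bar and the SD as an error bar (n = 4, RafGOFscrib- n = 3). Scrib genotypes stand left of the grey line. FBgn0000071 is the panel in which RafGOFscrib- lies away from RasV12scrib-.

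Of the 71 named genes 3 passed the threshold with the same sign in all 4 pairings, and all 3 were lower in scrib tumours, where 2.3% of all features were called lower. None was called higher (limma), where 0.92% of all features were, so among 71 genes the absence of a higher call tells little. In that direction 4 had an unadjusted p under 0.05. In all, 13 of the 71 had an unadjusted p under 0.05, against 14.2% of all features. Named genes with the same sign in all 4 pairings numbered 28, of which 11 were higher and 17 lower in scrib tumours. Of all features 34.9% had the same sign, 15.6% higher and 19.2% lower.

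Swim is a Wingless-binding extracellular protein, known to aid the spread of that growth factor in imaginal discs. It had -0.40, 0.02, -0.01 and -0.04 in RasV12scrib- and -0.05, -0.09 and -0.06 in RafGOFscrib- tumours. In RasV12baz- tumours it had 2.71, 2.66, 1.50 and 1.98, and in RasV12cdc42- tumours 0.49, 0.62, 0.93 and 0.47. All scrib replicates were near wild-type and all baz/cdc42 replicates above it, without overlap. The difference was -1.51 ± 0.18 (2.84-fold lower in scrib tumours, limma adjusted p = 0.000105).

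The size of the Swim difference depended on the genotype on the baz/cdc42 side. Against RasV12baz- it was -2.32 ± 0.24 for RasV12scrib- (limma adjusted p = 6e-05) and -2.28 ± 0.26 for RafGOFscrib- (adjusted p = 0.000171). Against RasV12cdc42- it was -0.73 ± 0.24 for RasV12scrib- (adjusted p = 0.118) and -0.69 ± 0.26 for RafGOFscrib- (adjusted p = 0.362), and neither passed. RasV12cdc42- itself lay below RasV12baz-, with a difference of -1.59 ± 0.24 (3.01-fold, limma adjusted p = 0.0161). With random blocks that call was lost (limma adjusted p = 0.499). The call of the 2 sides was kept under all 31 other settings (adjusted p up to 0.0465).

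Idgf3 is a chitinase-like secreted protein of the imaginal disc growth factor family. It had -0.67, -0.99, -0.55 and -0.51 in RasV12scrib- and -0.37, -0.72 and -0.05 in RafGOFscrib- tumours. In RasV12baz- tumours it had 0.31, 0.48, 0.04 and 0.21, and in RasV12cdc42- tumours 0.13, 0.47, 0.63 and 0.97. After centring, every scrib replicate was below 0 and every baz/cdc42 replicate above it. On RafGOFscrib- replicates 1 and 4 the medians taken off (0.47 and 0.32) exceeded the distance of Idgf3 below 0. Their uncentred ratios were therefore above 0. The difference was -0.94 ± 0.16 (1.91-fold lower, limma adjusted p = 0.00241). Its pairings gave -0.94 and -1.23 for RasV12scrib- (limma adjusted p = 0.0169 and 0.00281), and -0.64 and -0.93 for RafGOFscrib- (adjusted p = 0.291 and 0.0699), against RasV12baz- and RasV12cdc42- in that order. With random blocks neither RasV12scrib- pairing passed (limma adjusted p = 0.188 and 0.0656), and the one with RasV12baz- also did not pass with equal spread (adjusted p = 0.0931) or after quantile normalization (adjusted p = 0.0742). After quantile normalization the pairing of RafGOFscrib- with RasV12cdc42- passed (-1.02, limma adjusted p = 0.0336). The call of the 2 sides was lost without RasV12scrib- (-0.78, limma adjusted p = 0.0963) and without RasV12cdc42- (-0.79, adjusted p = 0.0521).

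Ebp is named for a protein of the male ejaculatory bulb. It had -1.79, -0.88, -1.39 and -0.998 in RasV12scrib- and -0.96, -0.43 and -0.69 in RafGOFscrib- tumours, against -0.25, -0.33, -0.23 and -0.14 in RasV12baz- and 0.61, 0.77, -0.50 and -0.15 in RasV12cdc42- tumours. All scrib replicates were below wild-type, and RafGOFscrib- replicate 3 overlapped RasV12cdc42- replicate 3. The difference was -0.95 ± 0.20 (1.93-fold lower, limma adjusted p = 0.0137). It passed for RasV12scrib- against RasV12baz- (-1.03) and RasV12cdc42- (-1.44) and not for RafGOFscrib- (-0.45 and -0.87). Neither RasV12scrib- pairing passed with random blocks (limma adjusted p = 0.25 and 0.0743), with equal spread (0.232 and 0.0781) or after quantile normalization (0.241 and 0.0645). The call of the 2 sides was lost in 5 of 31 settings, among them the random blocks (-0.97, limma adjusted p = 0.106) and the arrays with tumour RNA in Cy3 alone (-0.53, adjusted p = 0.125).

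**Figure D4:**
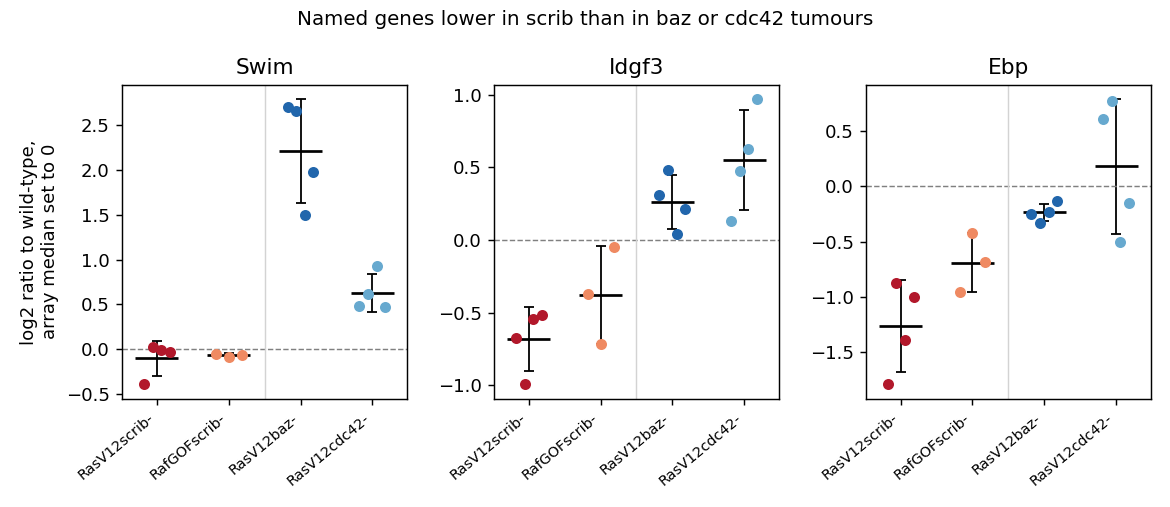
Centred log2 ratio to wild-type (vertical axis) of Swim, Idgf3 and Ebp by genotype, with 1 point per replicate, the mean as a bar and the SD as an error bar (n = 4, RafGOFscrib- n = 3). Scrib genotypes stand left of the grey line. Swim and Idgf3 do not overlap across it, and Swim is highest in RasV12baz-.

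The other named genes with the same sign in all 4 pairings did not pass. CG4570 came closest, at -0.66 ± 0.19 (limma adjusted p = 0.0738), with pairings between -0.60 and -0.72. Its levels were -0.65, -1.18, -0.20 and 0.00 in RasV12scrib- and -1.16, -0.46 and -0.04 in RafGOFscrib- tumours, against -0.03 to 0.21 in RasV12baz- and 0.04 to 0.30 in RasV12cdc42- tumours. The scrib replicates spread widely and the others narrowly, and the call was gained in 4 of 31 settings, one of them without RafGOFscrib- replicate 4 (-0.79, limma adjusted p = 0.0365) and another without RasV12scrib- replicate 4 (-0.74, adjusted p = 0.0390).

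In the higher direction the even pairings of Mau2, which encodes a cohesin loader, and of mGluR, a metabotropic glutamate receptor, can be set beside the uneven ones of CG5681. Pairings compare genotype means, and the replicates behind them were less even. Mau2 differed by 0.57 ± 0.20 (limma adjusted p = 0.152), with pairings of 0.57, 0.59, 0.55 and 0.57. Its RasV12cdc42- replicates were -0.26, -0.65, 0.66 and 0.51, and the 2 sides overlapped. For mGluR the difference was 0.52 ± 0.24 (limma adjusted p = 0.345), with pairings from 0.45 to 0.59. The RasV12scrib- replicates of mGluR were 1.33, 1.06, -0.28 and -0.30, so their positive mean came from replicates 1 and 2. CG5681 had the largest difference of these, 0.80 ± 0.29 (limma adjusted p = 0.174), but its pairings were 1.27 and 1.43 for RasV12scrib- and 0.17 and 0.33 for RafGOFscrib-. With the replicate block the RasV12scrib- pairings passed (limma adjusted p = 0.0367 against RasV12baz- and 0.0263 against RasV12cdc42-). Its RasV12scrib- replicates alone ran from 0.20 to 2.44.

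Smaller positive differences that did not pass were measured for Mccc2, a subunit of a mitochondrial enzyme of leucine breakdown (0.44), for the gene of heterochromatin protein HP1 (0.41), for the long non-coding RNA lncRNA:CR46499 (0.36) and for the testis gene ocn (0.33). S-Lap1, a leucyl aminopeptidase of sperm (0.18), CG10073 (0.17) and CG17666 (0.15) were likewise not called. Negative differences that did not pass were those of AMPKalpha, the catalytic subunit of an energy-sensing kinase (-0.57), the male-specific transcript Mst98Ca (-0.43) and Ant2, a mitochondrial adenine nucleotide carrier (-0.38). Sec24CD, which belongs to the COPII coat of transport vesicles, had -0.34, dyw -0.28 and the alkaline phosphatase gene Alp11 -0.25. Adjusted p-values of these genes (limma) ran from 0.229 for Mccc2 to 0.813 for CG10073.

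The sign rule divides genes close to 0 by small margins. CG17666 was counted in with a smallest pairing of 0.003, while Treh, which encodes trehalase, was left out for a pairing of -0.04 beside others of 0.08 to 0.99. Eig71Ee was left out for a pairing of 0.04.

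**Figure D5:**
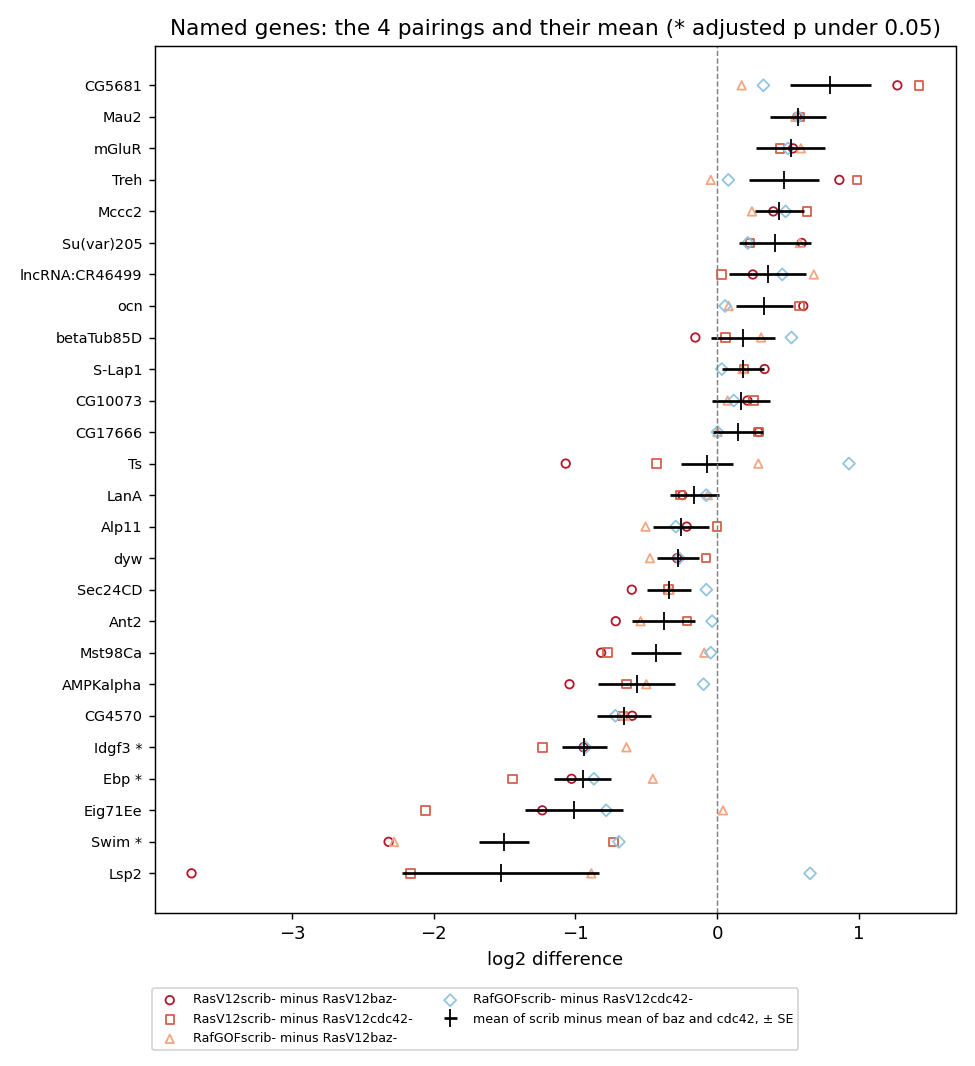
Log2 difference (horizontal axis) of 26 named genes in each of the 4 pairings (open symbols) and as the mean of the scrib genotypes minus the mean of the baz and cdc42 genotypes (black tick with SE). Stars mark the 3 genes with an adjusted p under 0.05. Open symbols of Mau2 and CG4570 lie close together, and those of Swim fall into a pair near -2.3 and a pair near -0.7.

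Lists of genes of known pathways, complexes and cell types reached few features. Of 523 genes in 38 lists 9 had a feature with a symbol, so no list had more than 2 members, and neither the engineered genes nor any defining eye or antennal marker could be read by name. The identity of the tissue was therefore not checked against its own markers. Among the 9, Swim and Idgf3 passed, both lower, and the other 7 did not, where 3.22% of all features passed and 2.3% were lower. The lists were chosen with earlier results of these data known, so this count cannot test whether list members differ more often than other features. Ts, which encodes thymidylate synthase of DNA precursor synthesis, differed by -0.07 between the sides (limma adjusted p = 0.925). Its pairings had both signs, with -1.07 and -0.43 for RasV12scrib- and 0.29 and 0.93 for RafGOFscrib-. Treh differed by 0.47 (limma adjusted p = 0.422; with the replicate block RasV12scrib- against RasV12cdc42- passed, 0.99, adjusted p = 0.0446), the laminin chain gene LanA by -0.16 (adjusted p = 0.776) and the testis tubulin gene betaTub85D by 0.19 (adjusted p = 0.808).

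Of markers of other larval tissues, Lsp2, a serum protein of the fat body, was the single one of 14 listed fat body genes with a named feature. It had -4.28, -4.75, -4.39 and -2.48 in RasV12scrib- and -3.51, -0.03 and 0.09 in RafGOFscrib- tumours, against 2.13, -0.03, 0.01 and -3.16 in RasV12baz- and -0.44, -1.70, -2.40 and -2.69 in RasV12cdc42- tumours. Arrays of a single genotype differed by several log2 units and the sides overlapped, with a difference of -1.53 ± 0.70 (limma adjusted p = 0.329). Eig71Ee, an ecdysone-induced gene of the larval salivary gland, had -2.42, -1.50, -2.62 and -2.42 in RasV12scrib- and -1.97, -0.33 and -0.60 in RafGOFscrib- tumours. It had -0.82, -0.91, -0.38 and -1.92 in RasV12baz- and 1.30, -0.96, -0.64 and -0.43 in RasV12cdc42- tumours, a difference of -1.01 ± 0.35 (limma adjusted p = 0.151). The part of such tissue RNA in the lower features was not tested, and in bulk samples fewer cells of a type and less RNA per cell cannot be told apart.

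Correlations between replicates across features, which are not independent of each other and all rest on ratios to wild-type disc RNA, were similar within and across the sides. The median r was 0.40 between RasV12scrib- and RafGOFscrib- replicates (range 0.28 to 0.64, 12 pairs) and 0.36 between RasV12baz- and RasV12cdc42- replicates (range 0.21 to 0.71, 16 pairs). Across the sides it was 0.38 (range 0.07 to 0.60, 56 pairs), and within a genotype 0.47 (range 0.20 to 0.81, 21 pairs). RasV12baz- replicate 4 correlated less with replicates 1 to 3 of its own genotype (0.32, 0.44 and 0.28) than with some other arrays. Its r was 0.65 and 0.71 with RasV12cdc42- replicates 3 and 4, and 0.55 and 0.54 with RasV12scrib- replicates 3 and 4. Without this array RasV12scrib- differed from RasV12baz- in 865 features, and RasV12cdc42- from RasV12baz- in 69. The cause was not tested.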

How the data were processed

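The authors deposited 1 table of log2 ratios, 1 column per 2-colour array; scanning, background correction, normalization and genome build are not given in the sources used here. Per the labels' protocols, RNA was isolated with TRIzol and amplified and labelled with random hexamers. The log base was inferred: 409 values recurred 3 or more times within an array, and 36.7% of them matched log2 of a quotient of integers no larger than 9 (tolerance 1e-05), while 0% matched a natural or decimal logarithm. Signal over background was not used here.

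Each array was centred on its median. RafGOFscrib- replicates 1 and 2 were averaged. A mean per genotype was fitted with limma 3.58.1 (R 4.3.3) over 15 replicates, with empirical Bayes moderation, two-sided tests and Benjamini-Hochberg adjustment over 11196 features at 0.05. Dye was not a term: 2 of 8 arrays on each side were swapped, all in 1 genotype of the side, so a dye term leaves the difference itself unchanged. Figures used Python 3.11.15 with matplotlib 3.10.9.

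Identifiers were looked up in a RefSeq gene table, by symbol and synonym: 71 matched 1 symbol, 1 several and 11124 none. Named genes are, per direction, those called with the same sign in all 4 pairings, filled up to 10 by size of the difference, plus list members, plus 2 unnamed identifiers. Members and lists were chosen with earlier results of these data known.

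The test was tried first on simulated data with the same genotypes and replicates, in which 200 features were changed. It recovered 92% of changes of log2 size 1 and 100% of size 2, with 9 false calls. Errors were drawn independently for each replicate, unlike the correlation of 0.49 within blocks. The trial therefore cannot give the error rate under such correlation. Deviations of same-numbered arrays from their genotype means correlated above 0.1 in all 4 pairs of RasV12scrib- with RasV12cdc42- (0.21 to 0.28) and all 3 of RasV12scrib- with RafGOFscrib- (0.13 to 0.28). Over all 21 pairs 12 did (range -0.35 to 0.36), which does not show pairing by number. Across features RasV12scrib- replicate 1 had r of 0.60 and 0.59 with RasV12cdc42- replicates 1 and 2. Its r with RasV12cdc42- replicates 3 and 4 was 0.36 and 0.31. RafGOFscrib- replicate 1 had 0.64 and 0.63 with RasV12scrib- replicates 1 and 2, and 0.46 with both 3 and 4. Pairing by number therefore cannot be told from a likeness of replicates 1 and 2, apart from 3 and 4, shared by those genotypes. The main fit used no pairing, and the replicate block joined equal numbers across all 4 genotypes. No fit paired those genotypes alone. Alternatives were other scalings, a dye term, replicate blocks, array weights, other moderation, a filter, the unmerged pair, Cy3 arrays only, and leaving out genotypes or replicates.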

Additional observations from a re-analysis of the deposited data

Results flagged for a closer look

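Outlying replicates were looked for in 90 groups of 4, of which chance would give about 1 in 20. In RasV12scrib- tumours, replicate 1 stood apart for Swim at -0.40 (others -0.04 to 0.02) and for FBgn0036605 at 0.26 (others 1.07 to 1.20). In RasV12baz- tumours, replicate 2 stood apart for CG17666 at -0.23 (others 0.02 to 0.05).

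Of 60 differences within a side examined for the features named, 3 passed (limma, adjusted p under 0.05), where 2.01% of all features passed between RafGOFscrib- and RasV12scrib- and 0.205% between RasV12cdc42- and RasV12baz-. Swim was lower in RasV12cdc42- than in RasV12baz- (-1.59, adjusted p = 0.0161, no overlap of replicates), a call lost with random blocks (adjusted p = 0.499). FBgn0000071 was higher in RafGOFscrib- than in RasV12scrib- (2.98, adjusted p = 0.000995), and so was Ts (1.36, adjusted p = 0.0142), each without overlap of replicates; with random blocks FBgn0000071 still passed (adjusted p = 0.0343) and Ts did not (adjusted p = 0.248).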

How the results depend on the processing

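The count of 360 features between the 2 sides stayed within 1.5 times under other scalings, a dye term, other moderation, a filter on low absolute log ratios, and the replicate block (386, with 315 of the 360). So did the count of called features with the same sign in all 4 pairings (332). The set of features changed more than the count. Of the 360, 275 were called after quantile normalization, 266 with equal spread and 249 without centring. The replicate block moved no count of the pairings by over 1.5 times, and it changed no call of the comparison of the 2 sides for the features named; 7 of 15 replicates correlated best with their own number. Counts moved further as follows, given first for the comparison of the 2 sides and then for those with the same sign. Random blocks gave 100 and 98, array weights 1057 and 828, the unmerged pair 590 and 545, and Cy3 arrays alone 197 and 190. Leaving out RasV12scrib- gave 129 and 129, RafGOFscrib- 685 and 684, RasV12baz- 197 and 194, RasV12cdc42- 150 and 148, and RasV12baz- replicate 4 with the merged pair 220 and 193. Leaving out single replicates gave 219 to 394 and 198 to 349.

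For RasV12scrib- against RasV12baz- (598), quantile normalization gave 256, equal spread 206, the dye term 364, random blocks 75, array weights 1773, Cy3 arrays 222, no RasV12cdc42- 359 and no RasV12baz- replicate 4 and merged pair 1044; single replicates gave 247 to 865. RasV12scrib- against RasV12cdc42- (426) gave 237 with quantile normalization, 121 with equal spread, 88 with random blocks, 1229 with array weights, 177 with Cy3 arrays and 256 to 476 without single replicates. RafGOFscrib- against RasV12baz- (96) gave 53 uncentred, 321 with quantile normalization, 283 with equal spread, 24 with random blocks, 703 with array weights, 264 with the unmerged pair, 45 without RasV12cdc42-, 29 without RasV12baz- replicate 4 and the merged pair, and 33 to 114 without single replicates. RafGOFscrib- against RasV12cdc42- (112) gave 247 with quantile normalization, 197 with equal spread, 22 with random blocks, 1016 with array weights, 72 with robust moderation, 194 with the unmerged pair, 33 with Cy3 arrays and 41 to 142 without single replicates. RafGOFscrib- against RasV12scrib- (225) gave 366 uncentred, 141 with quantile normalization, 81 with equal spread, 141 with the dye term, 16 with random blocks, 762 with array weights, 383 with the unmerged pair, 93 with Cy3 arrays, 118 without RasV12cdc42-, 493 without RasV12baz- replicate 4 and the merged pair, and 51 to 326 without single replicates. RasV12cdc42- against RasV12baz- (23) gave 14 uncentred, 133 with quantile normalization, 4 with the dye term, 0 with random blocks (limma, 368 at an unadjusted p under 0.05), 2893 with array weights, 9 with robust moderation, 4 with Cy3 arrays, 11 without RafGOFscrib-, 201 without RasV12baz- replicate 4 and the merged pair, and 2 to 69 without single replicates.

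Signs turned, without a call, for CG10073 with array weights (-0.052) and for betaTub85D with Cy3 arrays (-0.10) and without RafGOFscrib- (-0.046). For Ts they turned with quantile normalization (0.025), with equal spread (0.077), without RasV12scrib- (0.61) and without RasV12baz- (0.25), and without RasV12scrib- replicate 2 or RafGOFscrib- replicate 1 (range -0.16 to 0.037 without single replicates). The causes were not tested. Signal over background was not analysed here, so a ratio of dim spots cannot be told from one of bright spots.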
